A study of Mus musculus with 4 samples.

Results

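Vps13d is a mouse gene on the minus strand of chromosome 4, and its messenger RNA carried 118 of the 30763 eIF4A3 peaks in the list described here. The members were all peaks on that strand that began at or after 144562000 and ended at or before 144786000 on the mouse build mm9, the span of the gene. The gene was chosen because so many peaks lie in it, so the number, position, fold change and p-value of its peaks are given as a description and not tested. The lowest member began at 144647422 and the highest ended at 144780417. The nearest peaks of the same strand outside the span began at 142802526, with a fold change of 8.40, and at 145685236, with 6.47. They lay 1844821 nt and 904818 nt away from the nearest member. No plus-strand peak fell inside it.

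The peaks came from enhanced crosslinking and immunoprecipitation (eCLIP), which fixes proteins to RNA with ultraviolet light, pulls down 1 protein with an antibody and sequences the RNA fragments that come with it. The material was the mouse embryonic stem cell line J1, of the 129S4/SvJae strain, kept feeder-free in serum plus leukemia inhibitory factor and irradiated with 400 mJ/cm2 at 254 nm. There were 4 libraries, 2 of input RNA made without an antibody and 2 pulled down with an antibody to eIF4A3, and no gene was altered in either group. Each peak has 1 fold change and 1 −log10 p for the whole experiment, both the authors' own values, so no spread between replicates can be given for any peak. Which library group stands above and which below the line in the fold change is not given in the sources here, and the read depth behind each peak is unknown. The list holds no expression values, so the labelled cell type was not checked against marker genes.

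VPS13D belongs to the bridge-like lipid transfer proteins, long rod-shaped proteins that lie between membranes of neighbouring organelles and carry lipids along a groove. It is known for its part in the shape and clearance of mitochondria and in the formation of peroxisomes, and it binds ubiquitin. Its messenger RNA is long and is put together from many exons. eIF4A3 is an RNA helicase and the RNA-gripping core of the exon junction complex, which splicing leaves on messenger RNA about 20 to 24 nt before each exon-exon junction and which is removed when a ribosome first passes.

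Positions within exons come from the GENCODE M21 model of Vps13d, which is on the later build GRCm38. There the gene spans 144972622 to 145195005, and the transcript with the longest coding sequence, Vps13d-202, has 70 exons, 15849 nt and 4390 codons. Adding 1 constant, 410097 nt, to all peak positions put 4010 of the 4011 peak bases inside its exons. The best shift elsewhere put 1075 there. At that shift 15 peaks began exactly at the 5′ edge of an exon and 11 ended exactly at a 3′ edge. The shift was chosen for this overlap, so the overlap itself is no finding. Fitting it on the 59 peaks nearest the 5′ end of the transcript gave the same 410097 nt, and all 59 remaining peaks then overlapped an exon. Fitting it on those remaining 59 gave the same shift again, with all 59 of the others overlapping an exon. All positions printed for peaks are on mm9 as listed, and whether they count from 0 or from 1 is not stated.

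Sequences are shown for 7 of the 10 peaks with the highest listed fold changes, since they set the upper end of the range in this transcript. The letters are the RNA-sense strand of the Vps13d-202 transcript in GENCODE M21, written with T and placed by exon and distance from the exon edge. They are therefore those of GRCm38, not read from mm9. Capitals mark only the peak named on the line, and lower case marks up to 15 nt of the same exon on either side. In the lines for exons 25, 19 and 59, some lower-case bases belong to other peaks.
Exon 25, chr4:144728573-144728593, 62.5-fold: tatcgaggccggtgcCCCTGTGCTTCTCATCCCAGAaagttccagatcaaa
Exon 61, chr4:144647422-144647425, 39.3-fold: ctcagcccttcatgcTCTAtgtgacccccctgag
Exon 31, chr4:144712504-144712558, 27.2-fold: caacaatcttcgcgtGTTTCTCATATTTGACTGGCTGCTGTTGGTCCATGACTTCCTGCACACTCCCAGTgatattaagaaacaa
Exon 21, chr4:144738286-144738366, 22.0-fold: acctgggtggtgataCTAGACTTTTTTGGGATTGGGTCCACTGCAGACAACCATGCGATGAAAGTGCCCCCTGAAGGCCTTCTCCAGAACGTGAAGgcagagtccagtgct
Exon 19, chr4:144745922-144745972, 20.8-fold: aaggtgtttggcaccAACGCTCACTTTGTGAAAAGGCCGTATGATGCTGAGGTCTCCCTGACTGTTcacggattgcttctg
Exon 48, chr4:144677176-144677201, 20.5-fold: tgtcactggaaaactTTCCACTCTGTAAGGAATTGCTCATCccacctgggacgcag
Exon 59, chr4:144653477-144653503, 20.5-fold: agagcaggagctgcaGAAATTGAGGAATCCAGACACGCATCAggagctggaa

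The peak with the highest fold change lay in exon 25 and was the 8th highest of the whole list. It covered nt 57 to 77 of that exon, which code for codons 2031 to 2038. The 29 nt before it, chr4:144728594-144728622, formed another peak at 21.9-fold, and the 27 nt before those, at the very start of the exon, one more at 12.1-fold. The 3 adjoining peaks together filled nt 1 to 77 of the exon, each with a higher fold change than the one before it in the 5′ to 3′ direction. The peak at the other end of the exon, nt 146 to 183, was at 6.63-fold. The whole exon is shown with all peak bases in capitals, to set the covered stretches beside the uncovered one.
Exon 25: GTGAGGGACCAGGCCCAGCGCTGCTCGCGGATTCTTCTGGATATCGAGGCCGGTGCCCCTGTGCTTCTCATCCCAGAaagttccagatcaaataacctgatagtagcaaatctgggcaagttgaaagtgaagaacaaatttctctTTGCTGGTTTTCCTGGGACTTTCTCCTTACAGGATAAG

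The second highest peak was 4 nt wide, in exon 61, and was also the last peak of the transcript in the 5′ to 3′ direction. It held only nt 41 to 44 of that exon, with a −log10 p of 10.5. The third filled 55 nt of exon 31 (codons 2401 to 2419) and was the only peak in that exon. The remaining peaks among the 10 highest lay in exons 21, 25, 19 with 2 peaks, 48, 59 and 12, and ran from 22.0-fold down to 19.6-fold. The −log10 p of the peaks in exons 25 (21.9-fold and 62.5-fold) and 31 was 15.7 in each case, a value tied across the list, so p does not order these 3. Whether 15.7 is a measured value or only a bound is not stated, so their true p may be smaller. The peaks of exons 48 and 59 had the same fold change and the same −log10 p of 14.7, though they lie in different exons. In all, 24 members shared both values with another member, in 11 groups.

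Across all 118 peaks the median fold change was 9.79, with quartiles of 7.53 and 13.1 and a range from 4.97 to 62.5. Over all 30763 peaks the median was 6.57. A fold change of at least 8 with p at most 0.001, the stringent threshold used here, was reached by 85 of the 118 peaks (72.0%), beside 32.3% of the whole list. The lowest −log10 p of the whole list was 5.01, so the limit on p removed no peak and fold change alone decided. Since the gene was picked from this same contrast, nothing is read from the difference. The lowest fold change, 4.97, was that of a 61 nt peak near the start of exon 19, at chr4:144746567-144746627. The highest listed −log10 p was 41.0, in exon 14, on a peak of 95 nt at 10.7-fold, and the peaks with the highest fold changes were other ones. Among the 118 peaks the Spearman correlation of −log10 p was 0.69 with width and 0.41 with fold change, while that of fold change with width was 0.09. These correlations are across peaks that share libraries, transcript and the lower limits of the list. They take the tied −log10 p of 15.7, held by 3 of the peaks and possibly a bound, as listed.

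Beside the other 4 of the 5 clusters with the most peaks (peaks within 10 kb on 1 strand joined), Vps13d had the second highest median fold change and the lowest median −log10 p. Its median −log10 p was 14.4. The others had medians of 20.04 on chromosome X from 148269778, 23.4 on chromosome 4 from 32744143, 27.9 on chromosome 5 from 116009553 and 21.2 on chromosome 1 from 34209140. The highest fold changes of those 4 clusters were 19.0, 18.4, 25.5 and 21.4, all below the 3 highest in Vps13d. The median peak width was 29 nt in Vps13d and 22.5 to 28 nt in the others. With 1 list and no values per library, none of these differences was tested. Among the 32 clusters of at least 50 peaks, Vps13d ranked 6th in median fold change.

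At the shift, which was chosen to put the most peak bases on exons, all 118 peaks lay on exons and all within the coding sequence. Introns make up 206535 nt of the 222384 nt of the gene, and at that fitted shift none of them held a peak. A single peak reached past an exon edge, by 1 nt, at the 5′ end of exon 19. The peaks covered 25.3% of the messenger RNA and 30.4% of its coding bases. The 5′ untranslated region of 161 nt had no peak, and neither had the 3′ untranslated region, which fills most of the last exon of 2647 nt. The first peak in the 5′ to 3′ direction, at 14.1-fold, lay in exon 2, which holds the start codon, 239 nt from the 5′ end of the transcript.

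**Figure D1:**
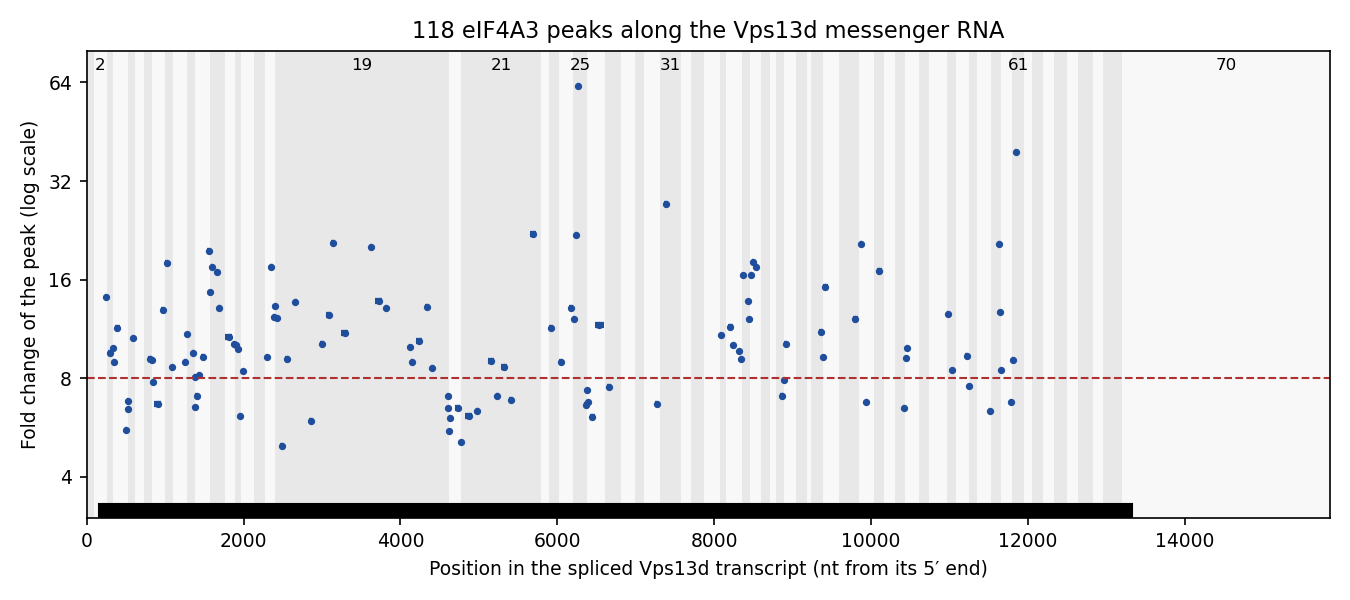
Each point and bar is 1 of the 118 peaks, drawn at its position in the spliced Vps13d transcript (horizontal axis, nt from the 5′ end) and its fold change (vertical axis, log scale). Grey bands alternate between exons, some of which are numbered, the black bar is the coding sequence and the dashed line is 8-fold. Peaks stop in exon 61, while fold changes stay between 4.97 and 62.5 up to there.

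The covered share was lower from stretch to stretch toward the 3′ end of the transcript. In 5 equal stretches of the messenger RNA, peaks covered 47.3%, 40.6%, 27.4%, 11.2% and 0% of the bases, with 47, 28, 25, 18 and 0 peaks. Fold change did not follow that order. Its median was 9.86, 8.99, 10.2 and 9.31 in the 4 stretches with peaks. Peaks in the fourth stretch were narrower, with a median of 12.5 nt against 31 to 41.5 nt in the earlier ones, and had a lower median −log10 p, 8.42 against 14.5 to 15.6. Along the transcript the Spearman correlation of position was −0.19 with −log10 p and 0.07 with fold change over the 118 peaks.

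The last 4004 nt of the messenger RNA, 25.3% of its length, held no peak. They include exons 62 to 70 and 1486 nt of coding sequence, so the empty stretch was not only the 3′ untranslated region. On the genome it corresponds to 84897 nt, of which 80893 nt are introns, among them introns of 24691 and 33285 nt after exons 65 and 67. The 8 internal exons in it ran from 97 to 241 nt, with a median of 142 nt beside 153 nt for the exons with a peak. Their median GC content was 49.1% beside 50%. The introns before and after them had a median of 4877.5 nt, against 1770 nt before and 1748 nt after the exons with a peak. Whether any of these goes with the lack of peaks was not tested. Of the 10 annotated transcripts, Vps13d-206, a short form with a retained intron, covers exons 61 to 63, and 5 others, Vps13d-201, Vps13d-202, Vps13d-203, Vps13d-208 and Vps13d-210, reach exon 70. Vps13d-205 covers exons 63 to 68, Vps13d-207 exons 64 to 67 and Vps13d-208 exons 68 to 70, and none of these overlaps a peak.

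Peaks fell on 45 of the 70 exons. Of these, 17 had 1 peak, 13 had 2, 7 had 3 and 5 had 4. Exon 12 had 6 peaks, exon 21 had 8 and exon 19 had 20. The 45 exons had a median length of 153 nt, and the 23 internal exons without a peak had a median of 134 nt. Up to exon 61, the internal exons without a peak were 15, with a median of 131 nt and a median GC content of 48.0%. The shortest exon, number 44 at 48 nt, was among them. Of the shortest exons that did carry a peak, exon 35 of 75 nt had 11 nt covered, exon 15 of 76 nt had 75 nt covered and exon 3 of 78 nt had 64 nt covered. Exon 5 of 84 nt had 25 nt covered and exon 37 of 90 nt had 19 nt. Exons of nearly the same small size thus had very different covered shares. Over the 68 internal exons the Spearman correlation of length with covered share was 0.12.

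The longest run of neighbouring exons that all had a peak went from exon 7 to exon 16, with 26 peaks on 10 exons. Exon 8 was covered over its whole length of 171 nt, by 4 adjoining peaks between 6.70-fold and 12.9-fold. Exons 14 and 15 were covered over 94.7% and 98.7%, and exon 26, farther along, over 95.1%. Other exons with a peak were nearly bare. Exon 16 had 14 of 171 nt in peaks, and exon 57 had 4 of 109 nt. Beside exons 62 to 70, the longest run without a peak was of 3 exons, from 32 to 34.

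**Figure D2:**
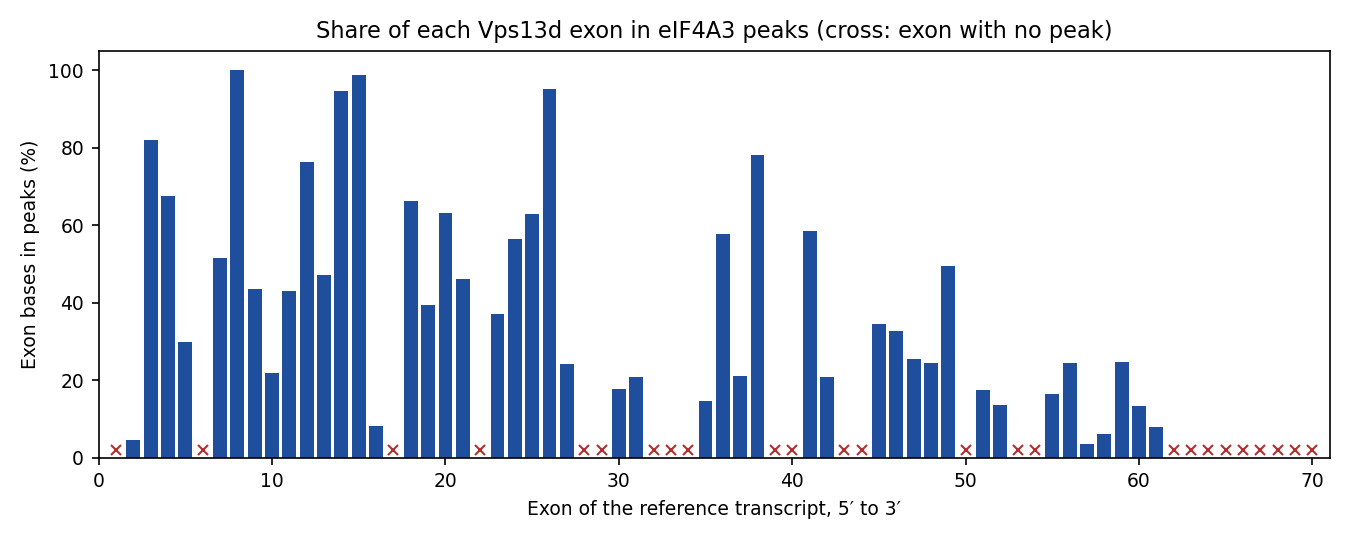
Bars give the share of each exon's bases that lay in peaks (vertical axis, percent) for the 70 exons of the reference transcript in 5′ to 3′ order (horizontal axis), and crosses mark the 25 exons with no peak. Exon 8 reaches 100%, and the last 9 exons are all at 0.

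Exon 19, at 2214 nt, is the longest internal exon, and its 20 peaks were spread along it. They covered 39.3% of it, with a median of 10.7-fold and a range from 4.97 to 20.8. The longest bare stretches between them were 279 nt, from nt 939 to 1217, and 278 nt, from nt 1431 to 1708. Of the 20 peaks, 15 lay over 100 nt from both ends of the exon. Exon 21, at 1032 nt, had 8 peaks over 46.2% of its length. There 7 of the 8 were between 5.12-fold and 9.01-fold, and 1, shown above, was at 22.0-fold, 66 nt before the 3′ end. The 2 exons together held 28 of the 118 peaks. Their covered share of 41.5% lay between the 46.5% of exons 1 to 18 and the 23.6% of exons 22 to 61, and their peaks were wider, with a median of 48 nt against 28 and 25 nt.

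Near exon ends, the distance at which the exon junction complex is placed was covered in 25 of the 68 internal exons. These had a peak on at least 1 of the bases 20 to 24 nt before their 3′ end, a share of 36.8% (Wilson 95% interval 26.3 to 48.6%, for counting error only, since all exons share the same transcript and libraries). At the mirrored distance, 20 to 24 nt after the 5′ end, 21 of the same 68 exons had a peak (30.9%, interval 21.2 to 42.6%). The intervals overlap, but both shares come from the same 68 exons, so that overlap is no test of their difference. The difference was not tested. In 12 exons both places were covered, in 13 only the one near the 3′ end and in 9 only the one near the 5′ end. Counted base by base, coverage before the 3′ end was highest at 17 to 19 nt, where 27 of the 68 exons were covered. It was 25 exons at 20 nt, 24 at 35 nt and 16 at 50 nt. After the 5′ end it was highest at 7 nt, with 25 exons, and stayed between 16 and 21 exons from 11 nt on.

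**Figure D3:**
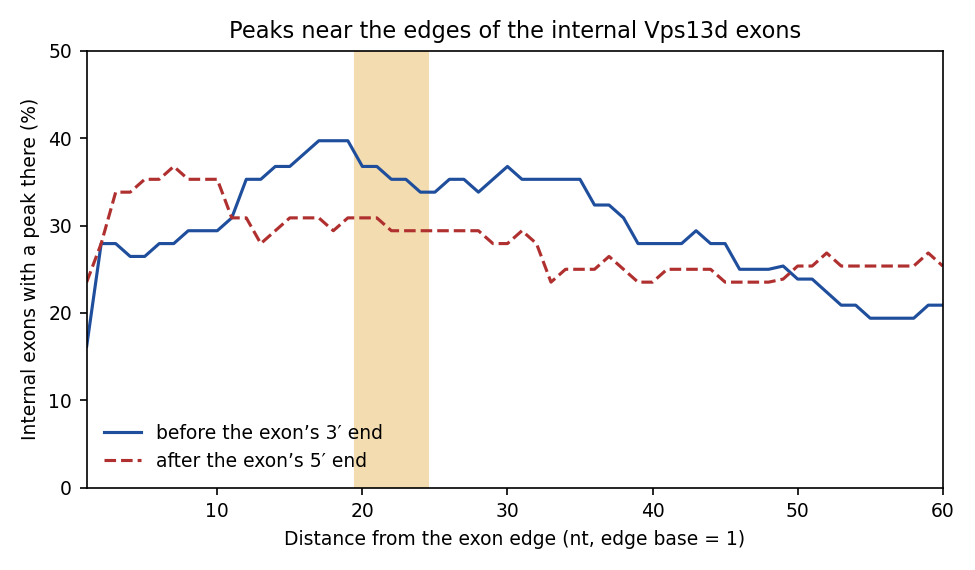
The lines show the share of the 68 internal exons (vertical axis, percent; those shorter than a distance are left out at it) with a peak at each distance from the exon edge (horizontal axis, nt, the edge base being 1), before the 3′ end (solid) and after the 5′ end (dashed). The shaded band is 20 to 24 nt, where the solid line lies between 33.8% and 36.8% and the dashed line between 29.4% and 30.9%.

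Peaks that reached an exon edge were often matched by a peak on the other side of the junction. Of the 69 exon junctions, 24 had a peak within 3 nt of the edge on at least 1 side. In 19 of these 24 (79.2%) there was such a peak on both sides, in 4 only after the junction and in 1 only before it. In the spliced transcript the matched peaks met without a gap at 11 junctions, with a gap of 1 nt at 4 and with a gap of at most 3 nt at the others. On the genome the same pairs lie an intron apart, with introns from 93 to 3903 nt and a median of 1434 nt. The introns at the other 50 junctions had a median of 2157 nt.

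By median, the fold changes of such a pair differed by more than those of adjoining peaks and by less than those of peaks farther apart. The absolute difference in log2 fold change had a median of 0.28 over the 19 pairs. It was 0.20 over the 32 pairs of adjoining peaks within an exon and 0.38 over the 36 pairs of consecutive peaks over 50 nt apart in the transcript. The order of these medians was not tested. The greatest difference of a matched pair, 0.85, was between exons 36 (9.15-fold) and 37 (16.5-fold). In 12 of the 19 pairs the shorter peak was at most 10 nt wide. At the junction of exons 7 and 8, for example, a peak of 54 nt at 9.14-fold was followed by one of 3 nt at 9.08-fold. At the junction of exons 37 and 38, a peak of 1 nt at 12.1-fold stood beside one of 25 nt at 16.5-fold. In the count of peaks such a small piece weighs as much as a wide one.

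Junction sequences are shown for these reasons: exons 7 to 9 hold the longest unbroken stretch of peaks, and exon 4 to exon 5 is a place where annotated transcripts differ. Each line gives the 25 nt on 1 side of the junction, with peak bases in capitals.
Exon 7, last 25 nt: GGACTTGCCTCAAGCGGAGTTACAG
Exon 8, first 25 nt: GAGGCCATGGCCAGAAGCATGGAGA
Exon 8, last 25 nt: GACCATTCCCTTGAAGCTGTCTCAG
Exon 9, first 25 nt: CTGCAGTACCGGCAGATCATGGCAT
Exon 4, last 25 nt: TCAGGCCCTGGAGGAGAGATGGAag
Exon 5, first 25 nt: aGTGAGCGGCggcagcagaagggag

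Read in the spliced transcript, peaks ran without a break for 257 nt from exon 7 through all of exon 8 into exon 9, through 6 peaks. Joining peaks that touch in the spliced transcript gave 75 sites, 10 of them over more than 1 exon, where joining on the genome gave 86. The next longest stretches, allowing gaps of 1 nt, were 250 nt over exons 25 and 26 and 200 nt over exons 14 and 15.

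Exon 5 is a place where a peak lies on bases that not all annotated coding forms hold. In Vps13d-201, a coding transcript of 68 exons, exon 5 is 66 nt long and lacks the first 18 of the 84 nt. A peak of 9 nt at 6.43-fold lay wholly within those 18 nt, on bases 2 to 10. It faced a peak of 8 nt at 6.81-fold at the end of exon 4, across an intron of 93 nt. Both peaks were below the stringent threshold, and which form was present in the cells was not tested. Vps13d-201 therefore overlapped 117 of the 118 peaks and Vps13d-202 all of them. Vps13d-210, a shorter annotated coding transcript of 52 exons that spans exons 19 to 70 of the reference, overlapped only 69. Exon 40, of 75 nt, is likewise missing from Vps13d-201, and it had no peak.

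**Figure D4:**
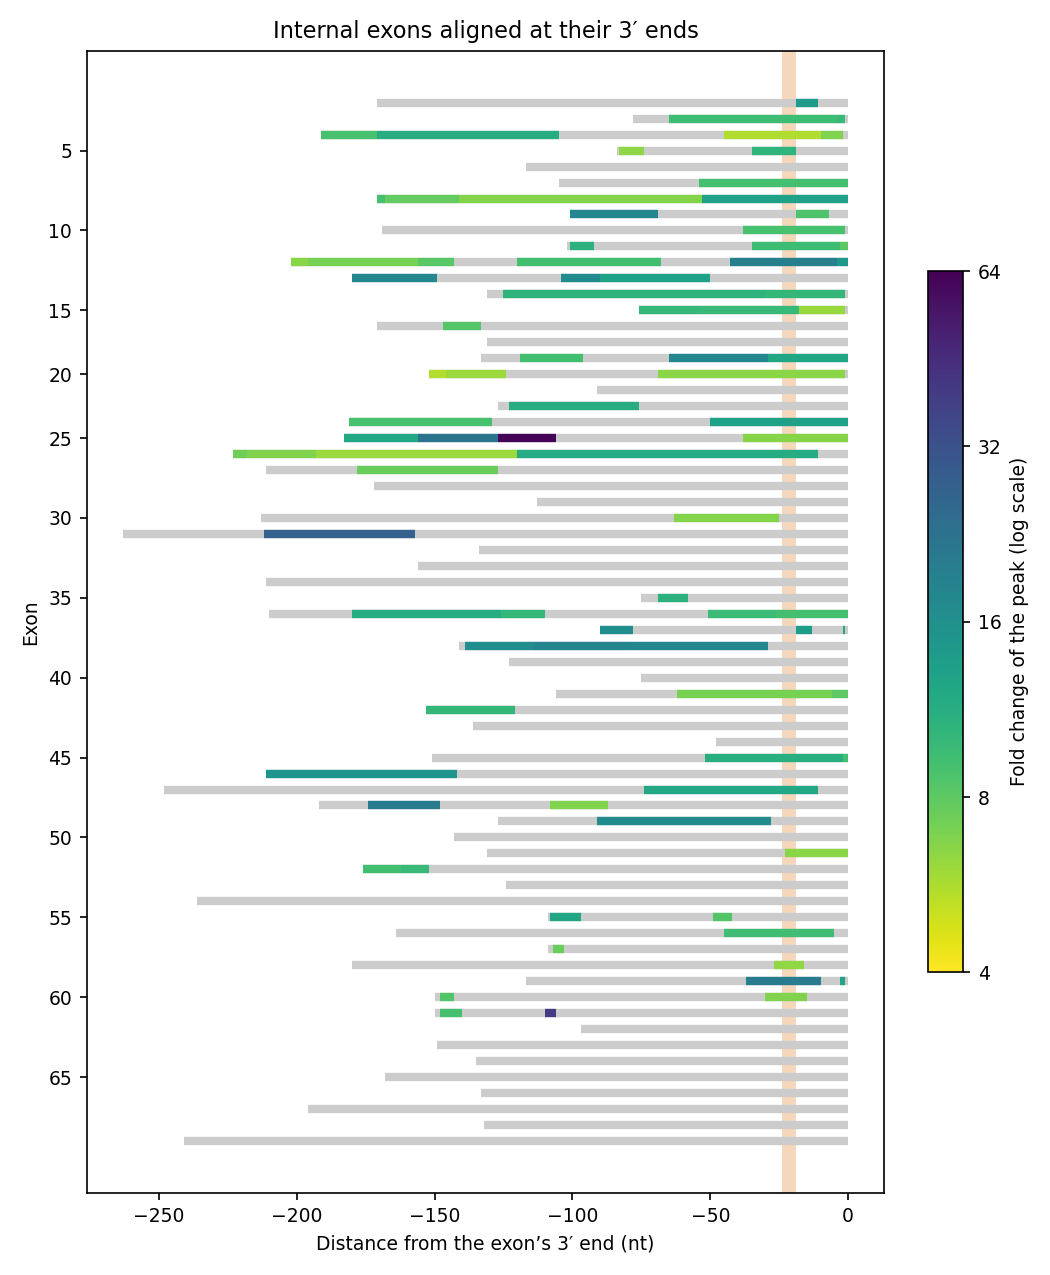
Each grey line is an internal exon of Vps13d (vertical axis, exon number, 5′ to 3′ from top to bottom, without the long exons 19 and 21), aligned at its 3′ end (horizontal axis, nt), with its peaks coloured by fold change (log scale). The orange band is 20 to 24 nt before the 3′ end, crossed by a peak in 25 of the 68 internal exons when exons 19 and 21 are counted too, and exons 62 to 69 are without colour.

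Peaks at exon edges were narrower than peaks inside exons but had similar fold changes. The 44 peaks within 3 nt of an edge had a median width of 15.5 nt and a median fold change of 9.20. The 74 others had a median width of 37.5 nt and a median of 9.91-fold, and they included all of the 10 highest. No listed peak spans a junction, so the width of a peak at an edge counts only the part on its own side. The widths are therefore not like measures, and their difference was not tested. No peak at an edge exceeded 18.01-fold.

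Bases in peaks were richer in G and C than the bases around them. GC content was 54.1% over the 4010 exon bases in peaks and 47.6% over the 5844 other bases of the same exons. C made up 27.2% of the bases in peaks and 22.6% of the others, and A 23.3% and 27.8%, while T, the base of uridine in the RNA, was at 22.5% in peaks and 24.6% outside. In 30 of the 44 exons that held both kinds of bases, GC content was higher in the peaks. Coding bases of exons without a peak had 48.3%. No test was made, because neighbouring bases and peaks are not independent.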

How the data were processed

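Per the labels' protocols, RNA from 2 input and 2 eIF4A3 eCLIP libraries gave paired-end reads, 50 nt long, with biological replicates. Cutadapt 1.18, STAR 2.6.1b and build mm9 are named in the submitters' processing notes without their roles. The sources used here name no peak caller or test and do not say whether replicates were pooled. The authors deposited 1 peak list, with a log2 fold change and a −log10 p-value per peak. Fold changes here are 2 to the power of the deposited log2 values. Start and end were both counted as part of the peak. Exon models and transcript letters came from GENCODE M21 (GRCm38), shifted by the constant, from −1000000 to 1000000 nt, with the most peak bases in exons. The shift scan was tested on simulated peaks, all drawn inside exons of this model and moved by 1 constant shift. That checks the scan's code and says nothing of where real peaks lie. Peaks within 50 nt formed sites, and 3 nt counted as an exon edge. Named were the 10 peaks with the highest fold change, the highest −log10 p, the lowest fold change, the first and last peak, and exons by peak number, fold change, length and runs. Junctions, stretches along the messenger RNA, exon 5 and base composition were chosen after their values were seen. The gene and these measures were chosen with earlier results of these data known. Related lipid transfer genes were not analysed here. Python 3.11.15, numpy 2.4.6, pandas 2.3.3, scipy 1.17.1 and matplotlib 3.10.9 were used.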

Additional observations from a re-analysis of the deposited data

How the results depend on the processing

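No paired analysis was possible because each peak has 1 value for the whole experiment, so no replicate could be dropped either. Of the 118 peaks, 85 passed the stringent threshold, 19 passed 16-fold with p at most 1e-05, and 48 of 62 sites passed when peaks within 50 nt were joined (fewer units by construction). Neither limit on p removed a peak, since the lowest −log10 p of the list was 5.01. The shift of 410097 nt came out again from coinciding edges, from all annotated transcripts and from either set of 59 peaks. From the 5 peaks within 1 Mb on either side it came out as −466843 nt, a value that 49 shifts tied for, with none of their 163 nt in exons at 410097 nt, so those peaks neither fix nor bear out the shift. With only peaks past the threshold, 25% of internal exons had a peak at 20 to 24 nt before the 3′ end in place of 36.8%. The 19 junctions with peaks on both sides were 11 of 16 within 1 nt and 12 of 18 with only peaks past the threshold. The last 20% of the messenger RNA was without peaks in Vps13d-201 too. The junction and stretch settings and the fits on 59 peaks were added after seeing the data. The 26 remaining settings kept their values within 1.5 times or within the interval. Some of them could hardly move, since all 118 peaks passed 4-fold and the shift was chosen to put them on exons. Among the 26 is the mirrored distance after the 5′ end, which is a different measure.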
